A study of Mus musculus with 2 samples.

Results

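The genes described here are 36 mouse genes of macrophages and of antigen presentation, measured by long-read RNA sequencing in the adrenal gland. They were found by gene symbol in the deposited table of each library, from a list drawn up with earlier results of these data known. Of the 18168 annotated genes with a read, 34 belonged to them. The adrenal tissue came from male mice aged 25 days of the strain B6CASTF1/J, the first-generation hybrid of C57BL/6 and CAST/EiJ parents. There were 2 libraries of total RNA, labelled replicates 1 and 2 of 1 group, with no treatment and no second condition. The descriptions number the libraries as biological replicates 1 and 2. The labels of the libraries name the same animal and those of the tissues name different animals, so the libraries may still be technical replicates. P-values set the difference between these libraries against counting error alone, and the spread between libraries was not estimated.

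Macrophages are resident phagocytes of nearly every tissue, where they clear dying cells and debris. They depend on the receptor Csf1r, make the complement starter C1q, and show peptides of engulfed material on MHC class II molecules, which are built from an alpha and a beta chain with the help of the invariant chain Cd74. MHC class I molecules, heavy chains such as H2-K1 and H2-D1 joined to beta-2 microglobulin (B2m), show peptides from inside the cell and are made by almost all nucleated cells, so they are not particular to macrophages.

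A long read is counted as 1 molecule, so no length correction was made, and levels are reads per 1000000 reads in annotated genes (CPM). Replicate 1 held 752432 gene reads and replicate 2 held 1210671. Thus 3 reads, taken here as the upper limit for a gene with none, equal 3.99 and 2.48 CPM. Intervals and limits cover counting error only, since PCR copies may be counted more than once. The libraries differed over many genes, among them markers of tissues other than the adrenal. Over the 11382 genes that reached 10 reads when both were added, 36.8% differed by Fisher's exact test with Benjamini-Hochberg adjustment at 0.05, 11.5% being higher and 25.3% lower in replicate 2. With TMM scaling the split was 17.7% higher and 13.7% lower, since that scaling places no change at -0.35 on the log2 scale, near the median of all tested genes (-0.34). The 6 hepatocyte markers, led by Alb, stood at 5.32 CPM in all in the former library and at 43821 CPM in the latter. The 6 skeletal muscle markers had a sum of 2392 and 0.826 CPM, and adrenal cortex markers to 61457 and 25032 CPM. The test compares these libraries, not conditions.

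Of the 36 genes, 34 had a read in either library and 31 in both. The whole set took 959 reads (0.127% of gene reads) in replicate 1 and 3054 reads (0.252%) in replicate 2, or 1275 and 2523 CPM (mean 1899 ± 882, SD, n = 2). Most of that gap came from the 3 class I genes, which summed to 691 and 1862 CPM. The other 33 genes summed to 583 and 661 CPM (622 ± 54.7, SD, n = 2), a gap of far smaller size. In bulk tissue, fewer cells of a type and less RNA per cell cannot be told apart.

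**Figure D1:**
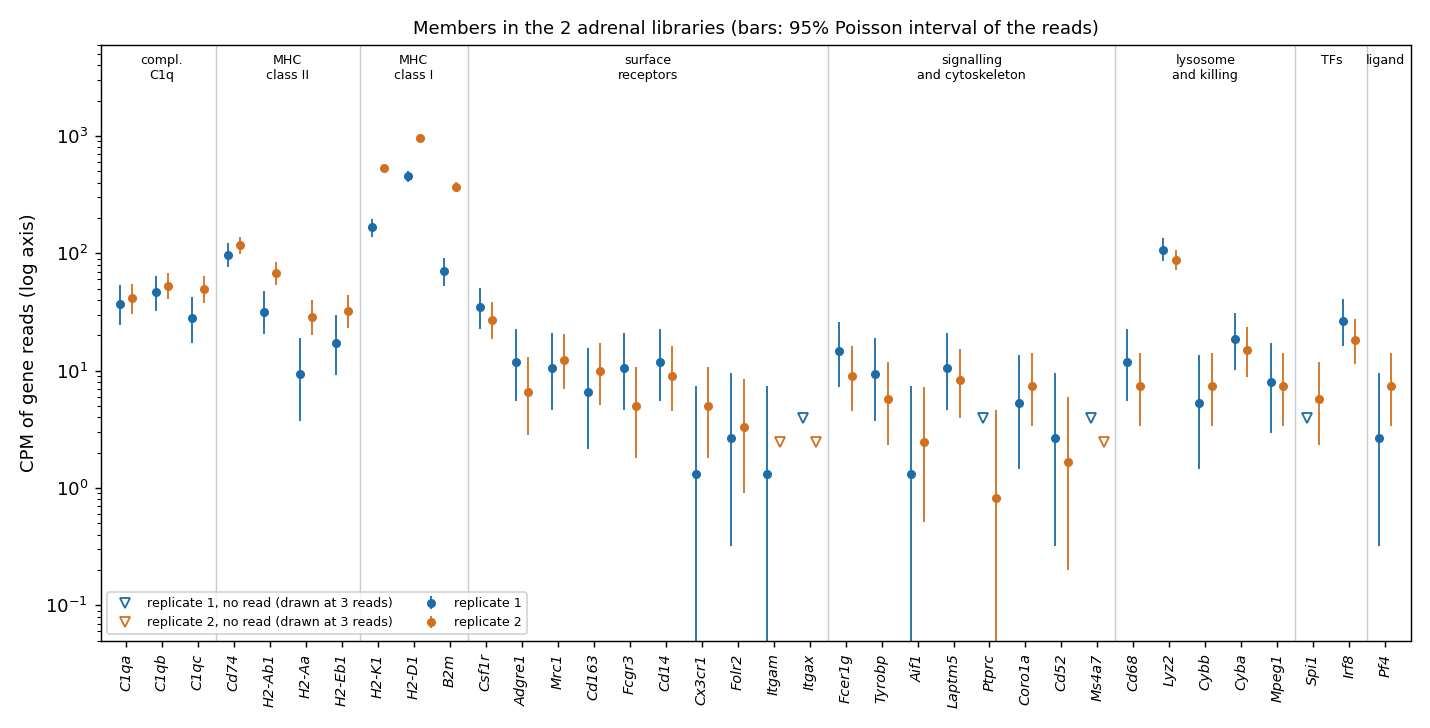
CPM of each of the 36 genes (log axis) in replicate 1 (blue) and replicate 2 (orange), grouped by role. Bars are the exact binomial 95% interval of the reads, which the figure title names Poisson. Open triangles, drawn at 3 reads, stand where a library had none. TFs are transcription factors and the ligand is Pf4. The 3 class I genes and the class II genes H2-Ab1 and H2-Aa sit higher in replicate 2, while most receptors and signalling genes overlap between the libraries.

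Of the 36 genes, 27 reached 10 reads and were tested. Among the 27, 5 were higher in replicate 2 (H2-K1, H2-D1, B2m, H2-Ab1 and H2-Aa), against 11.5% of all genes. By Fisher's exact test 0 were lower after adjustment, against 25.3% of all genes, and 0 were lower at an unadjusted p under 0.05. Genes with few reads have little power to be called. Of the 17 that reached 20 reads, 0 were lower, against 29.7% of all genes with that many. The median log2 ratio of the 27 was 0.18 beside -0.34 for all genes tested. With class I left aside, 24 tested genes had a median near 0 (0.00023). With TMM or DESeq2 scaling, C1qc, Cd74 and H2-Eb1 were also called higher, where 17.7% and 19.3% of all genes were. With an assumed coefficient of variation of 0.2 between libraries, B2m and H2-K1 were the 2 still called of the 27. In that setting 6.85% of all genes were higher, a share near that of the set.

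**Figure D2:**
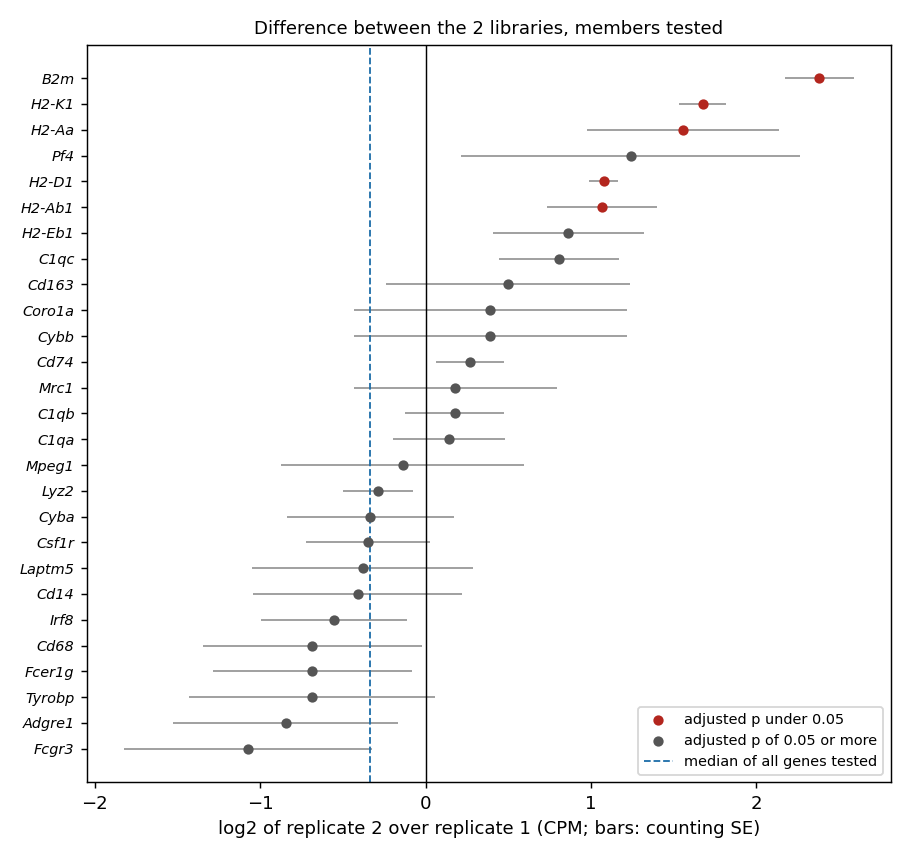
Log2 ratio of replicate 2 to replicate 1 for the 27 tested genes, with the counting standard error as bars. Red points passed the test at an adjusted p of 0.05, the solid line marks equal CPM and the dashed line the median of all genes tested (-0.34). B2m, at 2.38, lies farthest to the right.

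The complement genes C1qa, C1qb and C1qc encode the A, B and C chains of C1q, the molecule that binds antibody and dying cells and starts the classical complement pathway. They lie side by side on chromosome 4, from chr4:136880129 to chr4:136898803 (mm10). C1qa had 28 reads in replicate 1 and 50 in replicate 2 (37.2 and 41.3 CPM). C1qb had 35 and 64 reads (46.5 and 52.9 CPM). Neither differed between the libraries beyond counting error, with log2 ratios of 0.14 ± 0.34 and 0.18 ± 0.30 (SE). With TMM scaling these ratios were 0.49 and 0.52, and neither gene was called. C1qc had 21 and 60 reads (27.9 and 49.6 CPM), a ratio of 1.78 with a 95% interval from 1.06 to 3.07, which did not pass Fisher's exact test after adjustment (adjusted p = 0.058). Each C1q gene was read mostly as its 3-exon annotated transcript. C1qa-201 held 92.9% of spliced reads in replicate 1 and 79.5% in replicate 2. C1qb-201 held 91.2% and 95.1%, and neither share differed by the exact test (adjusted p = 0.589 and 0.959). A C1qc chain outside the annotation, with a donor site that lengthens an exon by 50 bases (chr4:136892794-136892843), recurred with 2 of 19 and 4 of 46 reads at that site.

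The invariant chain gene Cd74 (chr18:60803848-60812652) was the most abundant class II gene, with 73 and 142 reads (97.0 and 117 CPM, log2 ratio 0.27 ± 0.21 SE, Fisher's exact test adjusted p = 0.342). Cd74 escorts class II chains out of the endoplasmic reticulum and plugs their groove until it is cut in the endosome. The beta chain gene H2-Ab1 (chr17:34257689-34269419) had 24 and 82 reads (31.9 and 67.7 CPM) and was 2.12 times higher in replicate 2 (95% interval 1.33 to 3.50, Fisher's exact test adjusted p = 0.0036). Its partner, the alpha chain gene H2-Aa (chr17:34282744-34287823), had 7 and 35 reads (9.30 and 28.9 CPM), 3.11 times higher (1.36 to 8.29, exact test adjusted p = 0.013). The I-E beta chain gene H2-Eb1 (chr17:34305867-34316674) had 13 and 39 reads (17.3 and 32.2 CPM), with an interval of the ratio from 0.974 to 3.81 that includes equality (exact test adjusted p = 0.136). The 3 chain genes were thus all higher in CPM in replicate 2, and 2 of them passed the test. Within a library, Cd74 had 1.66 reads for each read of the 3 chain genes in replicate 1 (95% interval 1.13 to 2.47) and 0.910 in replicate 2 (0.720 to 1.15). Those intervals overlap at their edge. The I-E alpha chain needed to pair with H2-Eb1 is a pseudogene in C57BL/6, annotated as H2-Ea-ps, and had 3 and 7 reads.

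Cd74 was read in a pair of annotated forms. Cd74-202 holds an additional exon of 192 bases (chr18:60811294-60811485), which encodes the thyroglobulin type 1 domain of the long p41 form, and Cd74-201, the p31 form, skips it. The exon was included in 29 of 72 reads across that site in replicate 1, or 40.3% (exact binomial 95% interval 28.9 to 52.5). In replicate 2 it was in 53 of 141 reads, or 37.6% (29.6 to 46.1). The short form led in both libraries, with 57.5% and 56.7% of all spliced Cd74 reads (Fisher's exact test adjusted p = 1). No Cd74 chain outside the annotation recurred: 3 such chains had 1 read in replicate 1 and 3 in replicate 2. The chain genes were read almost wholly as 1 form each. H2-Ab1-201 held 95.8% and 93.9% of spliced reads, all 7 and 35 reads of H2-Aa were H2-Aa-201, and H2-Eb1-203 took 12 of 13 and 35 of 39 gene reads.

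Of 15 other genes of the class II pathway, 11 had a read in replicate 1 and 12 in replicate 2. Of the 9 tested, 1 was higher in replicate 2, the endosomal protease Ctsl, with 165 and 561 reads (219 and 463 CPM). Another, the protease Lgmn, was lower, with 165 and 189 reads (219 and 156 CPM). Over all tested genes 11.5% were higher and 25.3% lower. The regulator Rfxap had 26 and 44 reads. The master regulator Ciita had 0 and 1 read. The peptide loading gene H2-DMa had 1 and 5 reads and was not tested. Its partner H2-DMb1 had 2 and 10 reads, was tested and was not called.

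The promoters of the class II genes are known for a conserved module in which an X box, with a site for CREB-type factors, and a Y box for NF-Y are spaced in a fixed way. RefSeq windows from 250 bases before to 50 after each start (GRCm38.p6) matched 27 of the 36 genes. No window was found for Adgre1, C1qa, Cd14, Cd52, Cd74, Csf1r, H2-Ab1, Spi1 or Tyrobp. The stretches of H2-Aa (chr17:34287861-34287926, minus strand) and H2-Eb1 (chr17:34305753-34305818, plus strand) are shown because these class II chain genes lay on different sides of the threshold. With TMM or DESeq2 scaling both were called higher, so that contrast depends on the scaling. Capitals mark TGACG and its reverse complement, and CTGATTGG.
H2-Aa: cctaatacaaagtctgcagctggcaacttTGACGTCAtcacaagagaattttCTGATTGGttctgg
H2-Eb1: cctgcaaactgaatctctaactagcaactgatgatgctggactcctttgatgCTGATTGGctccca
CTGATTGG, searched on both strands, was in the windows of H2-Aa, H2-Eb1, H2-K1, H2-D1 and Irf8 and in 4.10% of all 32851 windows. TGACG was in 20.8% of all windows and in those of 7 of the 27 genes, with H2-Aa among them and H2-Eb1 not. A match to these letters describes the window and no more.

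The class I genes were the most abundant of the set by mean CPM, and all 3 were higher in replicate 2. H2-D1 (chr17:35262730-35267499) had 342 and 1162 reads (455 and 960 CPM) and ranked 161st of all genes by mean CPM. It was 2.11 times higher in replicate 2 (95% interval 1.87 to 2.39, Fisher's exact test adjusted p = 2.18e-36). H2-K1 (chr17:33996017-34000347) had 125 and 644 reads (166 and 532 CPM), 3.20 times higher (2.64 to 3.91, exact test adjusted p = 3.92e-39). Both encode heavy chains that present peptide to CD8 T cells. B2m (chr2:122147686-122153083), the light chain, had 53 and 448 reads (70.4 and 370 CPM), 5.25 times higher (3.95 to 7.12, exact test adjusted p = 1.33e-42). The 3 genes did not move by the same factor. B2m had 0.113 reads for each heavy chain read in replicate 1 (95% interval 0.0838 to 0.151) and 0.248 in replicate 2 (0.223 to 0.275). H2-D1 outnumbered H2-K1 by 2.74 to 1 in replicate 1 (2.22 to 3.39) and by 1.80 to 1 in replicate 2 (1.64 to 1.99). Neither pair of intervals overlaps. H2-K1, H2-D1 and the other class I genes are near-identical in sequence, and 1 parental genome is CAST/EiJ while the reference is C57BL/6, so the split of reads among these loci is uncertain.

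All 6 hepatocyte markers were among the 11.5% of tested genes higher in replicate 2, with 4 and 53053 reads in all. With 2 libraries, genes higher in the same library are not thereby linked. H2-Q10, a secreted class I molecule known from liver, had 5 and 1478 reads (6.65 and 1221 CPM). Whether it had a part in the class I difference was not tested. Of 18 tested genes among 23 others of the class I pathway, 6 were higher in replicate 2 and 3 lower. Over all tested genes the shares were 11.5% and 25.3%. Those higher were H2-Q10, the class Ib gene H2-T23 (41 and 235 reads), the peptide transporter subunit Tap2 (62 and 164), the chaperones Calr (130 and 380) and Pdia3 (336 and 750), and the immunoproteasome subunit Psmb9 (3 and 19). The lower genes were the loading bridge Tapbp (209 and 256 reads), the trimming peptidase Erap1 (33 and 25) and H2-M3 (8 and 2). Canx, a chaperone of heavy chains, had 219 and 381 reads and was not called. The transactivator Nlrc5 had 1 and 3 reads.

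**Figure D3:**
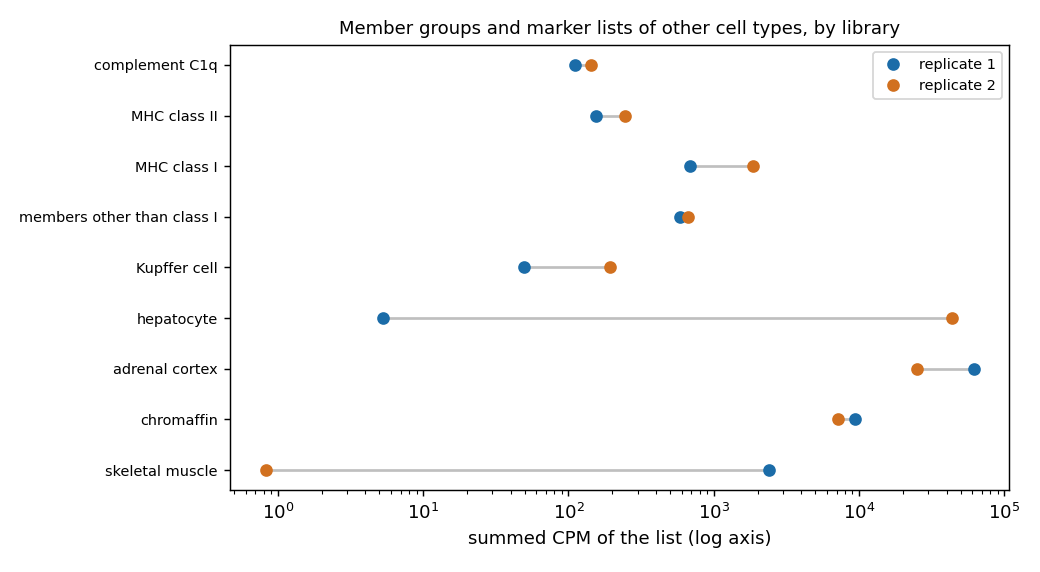
Summed CPM (log axis) of groups of the genes described here and of marker lists of other cell types in replicate 1 (blue) and replicate 2 (orange). Class I stood at 691 and 1862 CPM, Kupffer cell markers at 49.2 and 193 CPM and hepatocyte markers at 5.32 and 43821 CPM, while the genes outside class I stood at 583 and 661 CPM.

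H2-K1, like Cd74, was read in a pair of main forms. H2-K1-201 and H2-K1-205 differ by the acceptor site of the last exon, and H2-K1-201 has 27 more coding bases (chr17:33996477-33996503, minus strand) before a shared stop codon. The cytoplasmic tail of the heavy chain is encoded there. The spliced coding ends, from the start of exon 7 through the stop codon (GENCODE M21, chr17:33996472-33996654, minus strand), are shown with the bases found in H2-K1-201 alone in capitals.
H2-K1-201: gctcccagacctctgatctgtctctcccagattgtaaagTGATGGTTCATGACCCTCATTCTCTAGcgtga
H2-K1-205: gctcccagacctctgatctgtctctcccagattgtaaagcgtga
The acceptor of H2-K1-205 was used by 67 of 114 reads across that site in replicate 1, or 58.8% (exact 95% interval 49.2 to 67.9). In replicate 2 it was used by 259 of 600 reads, or 43.2% (39.2 to 47.2). These intervals do not overlap. As a share of all spliced reads, H2-K1-201 held 33.6% and 44.7%, a difference that did not pass Fisher's exact test after adjustment over 5110 genes (p = 0.031, adjusted p = 0.222). In H2-D1 a last-exon acceptor that adds the same number of bases, 27 (chr17:35266839-35266865), was used by 2 of 311 reads in replicate 1 and 2 of 1092 in replicate 2, and is not in the annotation. The annotated form H2-K1-216 shortens exon 3 by 36 bases and took 2 and 7 reads. A further chain lengthens exon 2 by 60 bases (chr17:34000004-34000063), and 5 of 106 and 12 of 537 reads used that site.

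H2-D1 was read mainly as H2-D1-202, with 77.9% of spliced reads in replicate 1 and 79.4% in replicate 2. It also had the most reads of the set and the most chains outside the annotation, 43, of which 10 occurred in both libraries. As the split of reads among class I loci is uncertain, some of these chains may hold reads of other loci. The most frequent begins exon 3 at an acceptor 114 bases inside it (chr17:35263839-35263952 is left out) and leaves 162 of its 276 bases. Exon 3 encodes the alpha 2 domain, a wall of the peptide groove. The bases left out end in AG, as acceptor sites do. The junctions with exon 2 in the annotated and the shortened form are shown because this form is not in GENCODE M21. Capitals mark exon 3.
H2-D1-202 junction: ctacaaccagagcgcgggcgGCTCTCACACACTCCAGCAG
H2-D1 shortened junction: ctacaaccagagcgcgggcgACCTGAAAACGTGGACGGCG
That acceptor was used by 6 of 328 reads in replicate 1, or 1.83% (0.674 to 3.94), and by 40 of 1106 in replicate 2, or 3.62% (2.60 to 4.89). Its length, 114 bases, is a multiple of 3. Another form lengthens exon 6 by 15 bases (chr17:35266467-35266481) in 8 of 309 and 31 of 1092 reads. In yet another, exon 5 runs 45 bases further (chr17:35266304-35266348) and exon 6, of 33 bases, is skipped, in 9 of 309 and 24 of 1073 reads. All 3 forms recurred at shares whose intervals overlap between the libraries. B2m, in contrast, was read as B2m-201 in 96.2% and 95.9% of spliced reads.

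**Figure D4:**
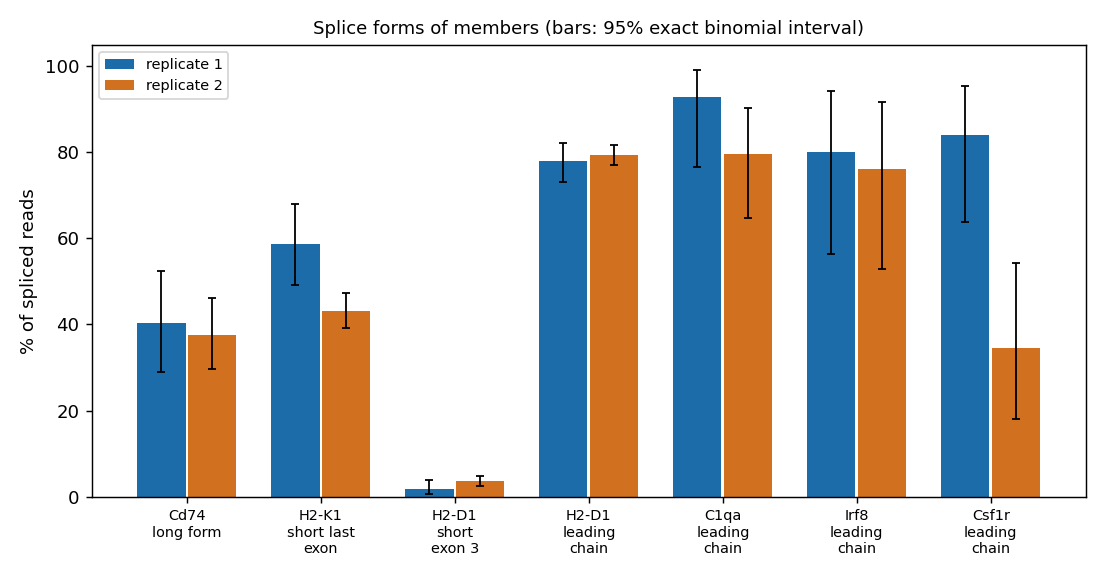
Share of spliced reads (%) of 7 splice forms in replicate 1 (blue) and replicate 2 (orange), with exact binomial 95% intervals. The first 3 bars of each color are shares of reads across 1 splice site and the others shares of all spliced reads of the gene. Csf1r-202, at 84.0% and 34.5%, is the only one of these whose leading chain passed the test.

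Class I promoters carry, beside the module shared with class II, a site for NF-kappaB. GGGATTCCC, searched on both strands, was in the windows of H2-K1 and H2-D1 and in 0.353% of all windows (116 of 32851). The interferon response core GAAANNGAA, searched on both strands, was in those of B2m, Aif1, Cybb, Folr2 and Ms4a7 and in 8.56% of all windows. These stretches are shown because the 3 genes were higher together, with each motif in capitals. They lie at chr17:34000438-34000466 and chr17:35262915-35262943 for the first motif, at chr17:34000372-34000399 and chr17:35262982-35263009 for TGACG, and at chr2:122147540-122147626 for B2m, which holds both GAAANNGAA and TGACG. H2-K1 is on the minus strand.
H2-K1 kappaB: ccagggctgGGGATTCCCcatctccacag
H2-D1 kappaB: ccagggctgGGGATTCCCcatctcctcag
H2-K1 TGACG: ccggacactgtTGACGcgcagtcagctc
H2-D1 TGACG: cgggacactgaTGACGcgctggcaggtc
B2m: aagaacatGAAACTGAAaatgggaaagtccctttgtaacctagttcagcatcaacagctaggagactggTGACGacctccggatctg
The same letters stand in genes that were not called (TGACG in C1qb, Cd68 and Coro1a), so the matches describe these windows alone.

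Among surface receptors, Csf1r, the receptor that keeps macrophages alive, had 26 and 33 reads (34.6 and 27.3 CPM). Its log2 ratio was -0.35 ± 0.38 (SE, Fisher's exact test adjusted p = 0.577), which is no change on the TMM scale (0.00). The mannose receptor Mrc1 had 8 and 15 reads (10.6 and 12.4 CPM), and the hemoglobin scavenger receptor Cd163 had 5 and 12 (6.65 and 9.91 CPM). Adgre1, a surface marker of mouse macrophages, had 9 and 8 reads, Cd14, the lipopolysaccharide co-receptor, 9 and 11, and the low-affinity Fc receptor Fcgr3 8 and 6. All 6 of these tested receptors stayed under the threshold, and each interval of the ratio includes equality, as from 0.489 to 5.40 for Cd163. The folate receptor Folr2 had 2 and 4 reads and the fractalkine receptor Cx3cr1 1 and 6. The integrins Itgam and Itgax, known from monocytes, microglia and dendritic cells, had 1 and 0 reads and none in either library. Summed, the receptors stood at 91.7 and 78.5 CPM.

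Csf1r was the 1 gene of 10 with enough spliced reads (20 in each library) whose leading form differed in share, where 7.42% of 5110 genes did. Csf1r-202, of 21 exons and 4701 bases, was read in full by 21 of 25 spliced reads in replicate 1, or 84.0% (exact 95% interval 63.9 to 95.5). In replicate 2 it was read in full by 10 of 29, or 34.5% (17.9 to 54.3; Fisher's exact test adjusted p = 0.0068). The other reads were mostly incomplete splice matches, the class for chains that lack an end of an annotated one. All 4 in replicate 1 and all 17 in replicate 2 kept the 3′ end and lacked the 5′ end. The call rests on these incomplete reads: without them the gene had too few reads to test. Counting known transcripts alone, Csf1r was called lower in replicate 2.

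Share in annotated models was also compared by transcript length, as a description with no test. Over the 6 genes whose leading transcript is 3 kb or longer (Csf1r, Adgre1, Mrc1, Cd163, Cybb and Cx3cr1), annotated models took 38 of 53 reads in replicate 1, or 71.7% (57.7 to 83.2). They took 34 of 83 in replicate 2, or 41.0% (30.3 to 52.3). This sum rests largely on Csf1r: the other 5 genes had 17 of 27, or 63.0% (42.4 to 80.6), and 24 of 50, or 48.0% (33.7 to 62.6), and these intervals overlap. Adgre1, with 5 of 9 and 7 of 8 reads, and Cx3cr1, with 0 of 1 and 1 of 6, went the other way. Over all 5527 genes of that length the shares were 73.1% and 65.7%. The 4 genes of 2 to 3 kb had 77.3% (72.7 to 81.5) and 78.4% (76.0 to 80.7). The 14 genes of 1 to 2 kb had 89.7% (86.5 to 92.4) and 83.0% (80.8 to 85.0), and the 7 under 1 kb had 90.0% and 92.8%. Class I genes gave many of these reads. H2-D1 gave 342 of 370 and 1162 of 1201 reads at 2 to 3 kb. B2m gave 53 of 90 and 448 of 498 under 1 kb. H2-K1, with 79.2% and 77.6% in annotated models, gave 125 of 439 and 644 of 1262 at 1 to 2 kb. The share was lower in replicate 2 at 1 to 2 kb and at 3 kb or more, and higher in the other classes. Of all incomplete splice matches of the set in multi-intron genes, 41 of 65 and 189 of 252 reads kept the 3′ end alone of a known chain read in the same gene. RNA quality was not measured in the files, and its part was not tested.

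**Figure D5:**
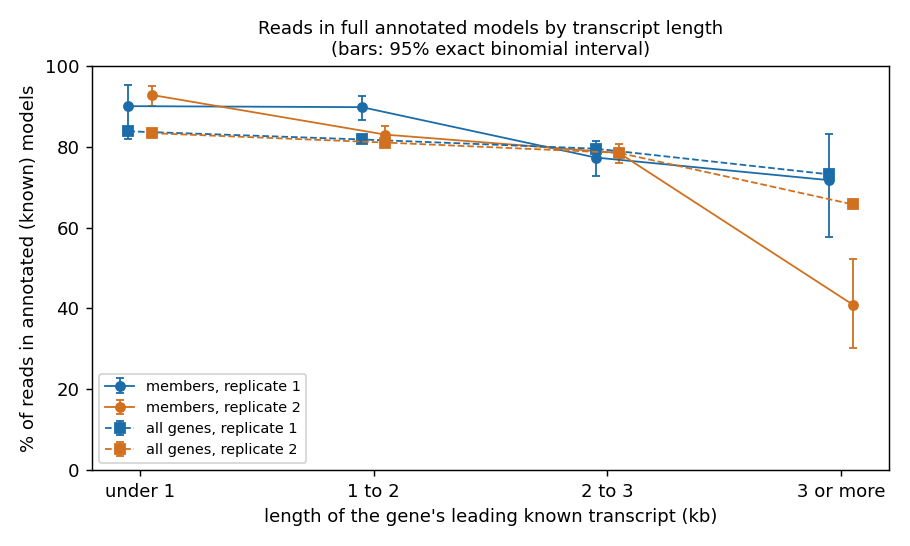
Share of reads (%) in annotated models by the length of the gene's leading known transcript, for the genes described here (circles, solid lines) and for all genes (squares, dashed lines), in replicate 1 (blue) and replicate 2 (orange), with exact binomial 95% intervals. At 3 kb or more the set stands at 71.7% and 41.0% in the libraries, and all genes at 73.1% and 65.7%. Without Csf1r the set stands at 63.0% and 48.0% there. H2-D1 gives most reads of the set at 2 to 3 kb, and B2m most under 1 kb.

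The signalling adaptors Fcer1g and Tyrobp, which couple Fc and Trem2 receptors to kinases through their activation motifs, had 11 reads in each library and 7 in each. At the greater depth of replicate 2 this is 14.6 and 9.09 CPM, and 9.30 and 5.78 CPM, with intervals of the ratio that include equality. Laptm5, a lysosomal membrane protein of blood cells, had 8 and 10 reads, and the actin regulator Coro1a 4 and 9. A Laptm5 chain with an intron absent from the annotation had 3 reads in replicate 1 and none in replicate 2. The leukocyte genes Aif1 (1 and 3 reads), Cd52 (2 and 2), Ptprc (0 and 1) and Ms4a7 (none) were at or near the limit of detection. Ptprc encodes the phosphatase that marks leukocytes, and it was read far less than Csf1r.

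Lyz2, the lysozyme of myeloid cells, had 81 and 107 reads (108 and 88.4 CPM) and was the most abundant gene outside antigen presentation. Lyz2-201 held 97.5% and 98.1% of its spliced reads. Per Csf1r read there were 3.12 Lyz2 reads in replicate 1 (95% interval 1.98 to 5.05) and 3.24 in replicate 2 (2.18 to 4.95), a proportion that did not differ beyond counting error. The subunits of the NADPH oxidase that makes superoxide in the phagosome, Cybb and Cyba, had 4 and 9 and 14 and 18 reads. Of 4 other oxidase genes, Ncf1 had 5 and 10 reads and Rac2 1 and 6. Ncf1 alone was tested and was not called. The endosomal glycoprotein Cd68 had 9 reads in each library (12.0 and 7.43 CPM). The pore-forming Mpeg1 had 6 and 9 reads, none in an annotated model. The same 2-exon chain took 6 reads in each library and was classed as genomic in replicate 1 and as an incomplete splice match in replicate 2, so its class depended on the library.

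Of the transcription factors, Irf8 had 20 and 22 reads (26.6 and 18.2 CPM), and Irf8-201 held 80.0% and 76.2% of its spliced reads. Spi1, the gene of PU.1, had 0 and 7 reads. It was not tested, and the interval of its ratio between the libraries includes equality (lower bound 0.896). The letters GAGGAAG, a core of PU.1 sites searched on both strands, were in the windows of C1qc, Fcgr3, Itgam, Laptm5, Mrc1 and Pf4 and in 13.6% of all windows. Of 7 other macrophage transcription factors, 4 were tested, and Cebpa was higher in replicate 2 (70 and 404 reads). Cebpb, the most abundant of them, had 948 and 1409 reads and was not called. The chemokine Pf4, made by platelets and by some tissue macrophages, had 2 and 9 reads (2.66 and 7.43 CPM, log2 ratio 1.24 ± 1.03 SE, Fisher's exact test adjusted p = 0.363). Platelet markers had 5 and 6 reads over 5 genes, too few to test.

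Other genes of Fc receptor and macrophage signalling included the abundant lysosomal proteases Ctsb (2265 and 1847 reads) and Ctsd (1773 and 1936). Both were lower in replicate 2, the 2 calls among 7 tested of 18, where 25.3% of all tested genes were lower. Fcgrt, the neonatal Fc receptor, had 158 and 236 reads and was not called. These 3 genes are made by many cell types.

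Markers of Kupffer cells, the macrophages of liver, were also among the genes higher in replicate 2. Clec4f had 0 and 29 reads, Cd5l 2 and 48, and Nr1h3, which other cells also make, 35 and 134. Over the 8 genes listed the sum was 49.2 and 193 CPM. All 3 tested were higher in replicate 2, beside 11.5% of all tested genes. Xcr1, which is on the list but is a marker of dendritic cells, had no read. Whether Kupffer cells had a part in the H2-Ab1 and H2-Aa differences was not tested.

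Markers of other leukocytes were few. T cell markers summed to 2 and 4 reads over 7 genes, NK cell markers to 0 and 3 over 5, neutrophil markers to 1 and 1 over 9 and mast cell markers to 4 and 7 over 7. The B and plasma cell list had 25 and 46 reads, of which Ighm gave 24 and 41, while Ms4a1 had none. The dendritic cell list had 22 and 29 reads, of which Zbtb46, also made by endothelium, gave 21 and 28, while Flt3, Clec9a and Siglech had none. The monocyte list had 8 and 82 reads, of which Fn1, also a liver product, gave 8 and 80, while Ly6c2 and Ccr2 had none. Of the resident macrophage list, Mertk had 7 and 9 reads, Gas6 101 and 123, and Selenop, also a liver product, 265 and 2494. Against the label of the set, Csf1r, the C1q genes, Lyz2, Adgre1 and Cd68 were read in both libraries, and Itgax and Ms4a7 were not detected at this depth.

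Across the set, annotated models took 83.3% of reads in replicate 1 (80.8 to 85.6) and 81.4% in replicate 2 (79.9 to 82.7), beside 77.0% and 75.6% over all genes. Of its 235 intron chains, 72 (30.6%) occurred in both libraries and held 93.8% of spliced reads. Over all genes 23.9% of chains did, with 83.3% of spliced reads. Of 94 chains outside the annotation, 15 (16.0%) recurred, beside 13.6% over all genes. Of these 15, 13 were in H2-D1 and H2-K1, the genes with the most reads.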

How the data were processed

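Total RNA of adrenal gland was sequenced as long reads in 2 libraries of 1 group. The authors deposited raw read counts per transcript model for each library separately, and an annotation of the models, on mm10 with GENCODE M21 per the file headers. The aligner and the tool versions were not given in the sources used here. The authors' model classes are known, incomplete splice match (ISM), NIC, NNC and genomic, where NIC and NNC are chains outside the annotation.

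Counts of all models of an annotated gene were summed, leaving out spike-ins (11058 and 17139 reads), and CPM was computed over 752432 and 1210671 gene reads. Models of the libraries were joined where strand and all introns were the same. Genes that reached 10 reads over both libraries were compared by Fisher's exact test (two-sided, scipy 1.17.1), and the share of the leading chain in genes with at least 20 spliced reads in each library, each with Benjamini-Hochberg adjustment over all genes tested at 0.05. Log2 ratios used a prior of 0.5 reads. Share intervals and count intervals are both Clopper-Pearson, at 95%. The scripts were tested on simulated data.

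Alternatives were TMM factors (edgeR 4.0.16) and DESeq2 1.42.0 size factors with an exact binomial test, other read minimums and priors, model classes left out, genes over 10-fold different left out, replicate 2 thinned, matching within 5 bp and an assumed coefficient of variation of 0.2.

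The genes, the 5 pathway lists, the 16 marker lists and the motifs were chosen with earlier results of these data known. All 36 genes are accounted for. Genes of other lists are named where they are among the 3 highest of a list, were called, or are defining markers with no read. Ciita, Nlrc5, H2-DMa and H2-DMb1 were named after their values were seen. Sequences are from GENCODE M21 transcripts and RefSeq windows, and none is shown for genes on chromosome 18. Some genes of the other lists are not reported here.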

Additional observations from a re-analysis of the deposited data

Results flagged for a closer look

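Models on the strand opposite to a gene lie outside the counts above. They were flagged where a library had more than 3 such reads within the gene's bounds. In replicate 2, H2-K1 had 13 such reads, H2-D1 16, B2m 28 and Cx3cr1 8, and in replicate 1 these genes had 3, 3, 1 and 0. Of the B2m reads, 13 in replicate 2 and 1 in replicate 1 carried introns of B2m itself.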

How the results depend on the processing

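The 5 genes higher in replicate 2 were the same 5 with no read minimum, with 20 reads, with known transcripts alone and without genomic or ISM models. The count was 8 with TMM factors, 8 with DESeq2 size factors and 8 without genes over 10-fold different, in each case with the 5 included. It was 2 with the assumed coefficient of variation. Over all genes, the shares higher in these settings were 17.7%, 19.3%, 13.5% and 6.85%, in that order. Thinning replicate 2 kept the count at 5 with C1qc in place of H2-Aa. The count of lower genes, 0 at first, was 1 (Csf1r) with known transcripts alone, where 28.8% of all genes were lower. The count of genes with a differing leading chain, 1 at first, was 0 without ISM and genomic models and 0 with 50 spliced reads in each library.

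Some log2 ratios changed sign with scaling, none of them called. With TMM factors they were 0.00035 for Csf1r, 0.014 for Cyba, 0.062 for Lyz2 and 0.21 for Mpeg1. With DESeq2 size factors they were 0.056 for Csf1r, 0.070 for Cyba, 0.023 for Laptm5, 0.12 for Lyz2 and 0.27 for Mpeg1.

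Mean summed CPM moved by more than the SD of the libraries in these cases. Without genes over 10-fold different it was 723 for genes outside class I, 97.2 for surface receptors, 158 for lysosome and killing genes and 29.0 for transcription factors. With known transcripts alone it was 688, 71.1 and 159 for the first 3 of these. Leaving out replicate 1 or replicate 2 gave sums between 1275 and 2523 CPM for the whole set. No paired analysis was possible because the libraries are of 1 group. Depth limits most genes outside class I: with under 20 reads in a library, intervals of the ratio spanned several fold.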
